A study of Mus musculus and Rattus norvegicus with 30 samples.

Results

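The genes described here carry MHC class II antigen presentation in the mouse dorsal root ganglion (DRG), the cluster of sensory neuron cell bodies beside the spinal cord. They are the 10 genes with the symbols H2-Aa, H2-Ab1, H2-Eb1, H2-DMa, H2-DMb1, H2-Oa, Cd74, Ciita, Ctss and Cd86, chosen by symbol among the 54315 features (annotated genes and LncRNAs assembled by the study) of the mouse count table, and all 10 had a row. RNA depleted of ribosomal RNA was sequenced from the L3 and L4 DRG of individual adult mice, 28 days after spared nerve injury (SNI) or sham surgery. SNI is a partial lesion of the sciatic nerve: of its terminal branches only the tibial nerve keeps its connection to the leg. The groups were BALB/c sham (n = 6), BALB/c SNI (n = 4), B10.D2 sham (n = 5) and B10.D2 SNI (n = 5), with 10 female and 10 male mice in all. B10.D2 is a strain in which nerve injury leaves less hypersensitivity than in BALB/c, and the comparisons ask how the 2 strains and their response to injury differ in the DRG. The strains differ across the whole genome, but both carry the H2-d haplotype of the MHC. A further 1 B10.D2 sham mouse and 1 BALB/c SNI mouse were left out by the study and had no column of counts.

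MHC class II molecules are pairs of an alpha and a beta chain that show peptides from the endosome to CD4+ T cells. In mice H2-Aa and H2-Ab1 encode the chains of I-A, and H2-Eb1 encodes the beta chain of I-E. Newly made pairs are held by the invariant chain, Cd74, which the endosomal protease cathepsin S (Ctss) cuts down to a short peptide. The H2-DM dimer (H2-DMa, H2-DMb1) exchanges that peptide for others, and the H2-O dimer, to which H2-Oa belongs, holds H2-DM back. Ciita is the transactivator on which class II transcription depends, and Cd86 is a costimulatory ligand on the presenting cell. These genes are typical of macrophages, dendritic cells and B cells, and the DRG holds resident macrophages around its neurons.

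The genes lie mostly together. In mm10 (GRCm38), with positions from GENCODE M21, H2-Oa (34092340 to 34095234), H2-DMa (34119541 to 34139101), H2-DMb1 (34153072 to 34160230), H2-Ab1 (34257689 to 34269419), H2-Aa (34282744 to 34287823) and H2-Eb1 (34305867 to 34316674) follow each other on chromosome 17. H2-Aa is on the minus strand and the other 5 are on the plus strand. Ciita (10480059 to 10528418, plus) and Cd86 (36603869 to 36666081, minus) are on chromosome 16, and Ctss (95526786 to 95556403, plus) is on chromosome 3. Cd74 (60803848 to 60812652, plus) is on chromosome 18. All are protein coding, and the values below count reads over their exons.

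Counts summed to between 29989963 and 41881331 per mouse library. No 2 libraries of a group were identical. Of 7 injury markers (Atf3, Sprr1a, Gal, Npy, Sox11, Gap43 and Csf1), 7 rose after SNI in BALB/c and 7 in B10.D2. Macrophage markers summed to between 164 and 508 counts per 1000000 library counts (CPM) in the 20 libraries, against sensory neuron markers at between 6138 and 7406 CPM. In RNA from whole ganglia, fewer cells of a type and less RNA per cell cannot be told apart.

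Class II promoters share an X box, bound by RFX, and a Y box, bound by NF-Y at the letters CCAAT or, on the other strand, ATTGG. The RefSeq promoter table (GRCm38.p6) held a window for 6 of the 10 genes (H2-Aa, H2-Eb1, H2-DMa, H2-DMb1, H2-Oa and Ctss), and for H2-Ab1, Cd74, Ciita and Cd86 it held none. The stretches below, of 120 bases each and ending at the base before the annotated start, are shown because H2-Aa and H2-Eb1 encode chains of the class II molecule and Ctss is the gene called after injury below. Capitals mark GCAAC, a core of the X box, ATTGG and CCAAT in H2-Aa (chr17:34287824-34287943, minus strand) and H2-Eb1 (chr17:34305747-34305866, plus strand), and GAAA followed after 2 bases by GAAA, the core of an interferon-stimulated response element, in Ctss (chr3:95526666-95526785, plus strand).
H2-Aa: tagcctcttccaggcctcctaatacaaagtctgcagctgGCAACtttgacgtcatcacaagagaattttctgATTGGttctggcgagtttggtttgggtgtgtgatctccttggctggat
H2-Eb1: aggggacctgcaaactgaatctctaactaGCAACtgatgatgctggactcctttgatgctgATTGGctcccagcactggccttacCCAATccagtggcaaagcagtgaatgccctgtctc
Ctss: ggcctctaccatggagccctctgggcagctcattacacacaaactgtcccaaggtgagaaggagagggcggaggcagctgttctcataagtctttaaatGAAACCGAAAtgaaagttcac

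In H2-Aa the letters ATTGG began 48 bases before the start and followed GCAAC after 28 bases. In H2-Eb1 they began 59 bases before it and followed GCAAC after 27 bases, and in H2-Oa they began 43 bases before it and followed GCAAC after 28 bases. H2-DMb1 had ATTGG 61 bases before its start with no GCAAC in the window. GCAAC followed by ATTGG after 23 to 30 bases, searched on both strands in the 250 bases before each start, was in 101 of the 32851 windows of the table (0.307%), whereas CCAAT on either strand was in 33.8% and GCAAC in 29.9%. The Ctss window held neither, and its pair of GAAA, which began 21 bases before the start, is found on either strand in 2.98% of windows. Of the windows for 2 starts of H2-DMa, 1 had ATTGG 198 bases before the start and 1 had GTTGC, the other strand of GCAAC, 7 bases before it. The interferon gamma activated site, TTC and GAA with 3 bases between them, present in 7.02% of windows, was in none of these 6 genes. The spacing was set after these windows had been read, and such matches describe letters, not bound sites.

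The 10 genes were read at very different depths. Per kilobase of exon, which allows genes to be compared, the median level over the 20 libraries was highest for Cd74 at 58.3 CPM per kb, followed by H2-Eb1 at 18.2, Ctss at 17.7, H2-Ab1 at 15.99 and H2-Aa at 15.4 CPM per kb. Those last 4 neighbours overlapped, with ranges of 8.04 to 32.8 for H2-Eb1, 5.76 to 51.3 for Ctss, 7.94 to 29.2 for H2-Ab1 and 7.96 to 29.4 CPM per kb for H2-Aa. H2-DMa stood at 4.78 CPM per kb (range 4.14 to 5.43) and its partner H2-DMb1 at 1.61 (range 0.716 to 3.22). Ciita, at 0.614, and Cd86, at 0.576 CPM per kb, were close together at the low end. H2-Oa was the lowest at 0.135 CPM per kb, with 138 counts in all 20 libraries together and between 0 and 15 in any 1. It did not pass the filter on low counts, so 9 of the 10 genes were tested.

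**Figure D1:**
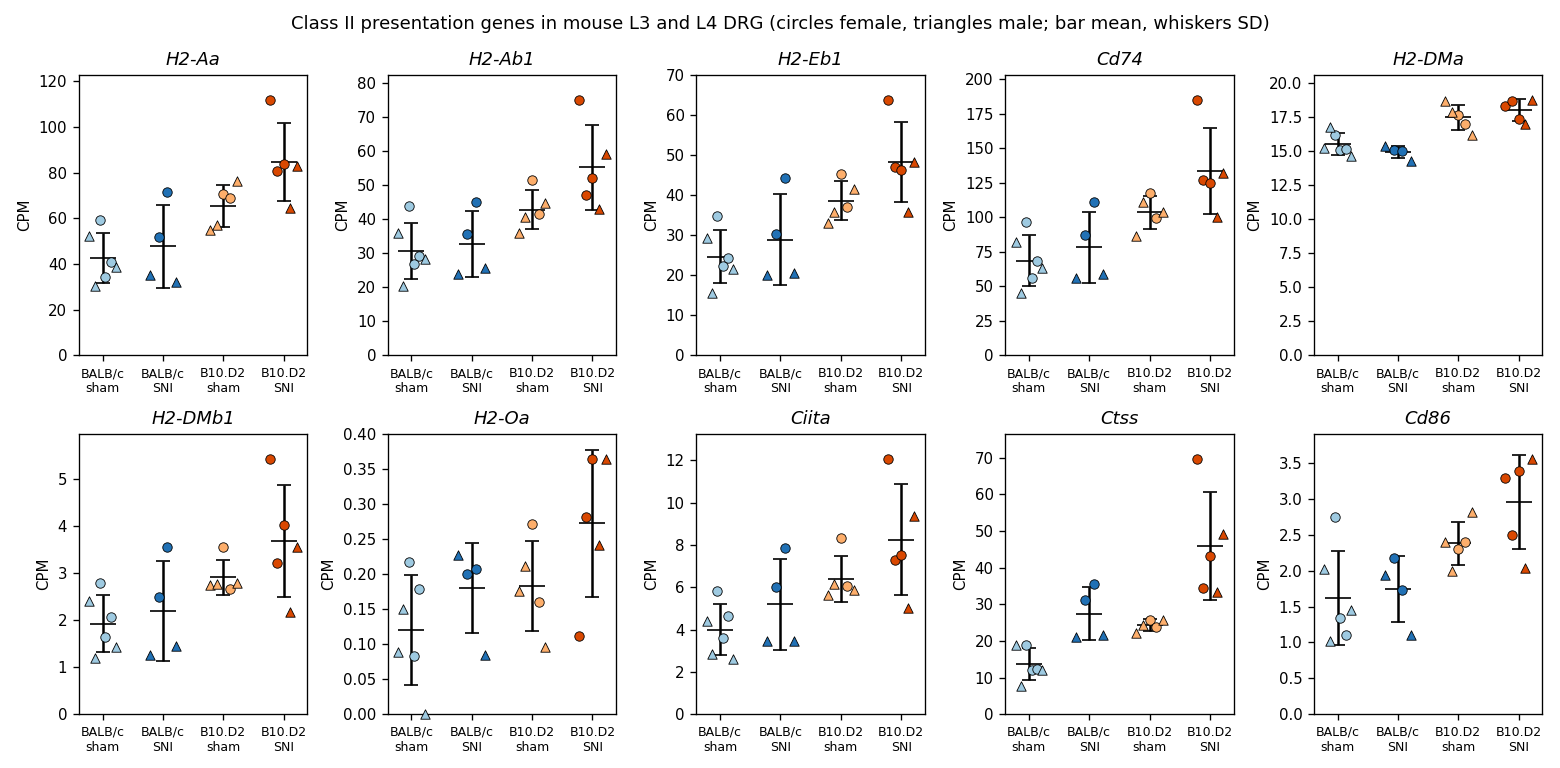
Level of each of the 10 genes in CPM (y axis, from 0) in every mouse library, by strain and surgery, with circles for female and triangles for male mice, a bar for the mean and whiskers for the SD. The B10.D2 groups sit above the BALB/c groups for the class II chains and Cd74, and Ctss alone has SNI libraries all above the sham libraries in both strains.

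The difference between the strains was the broadest result. In the sham mice, with no nerve cut, 8 of the 9 genes tested were higher in B10.D2 than in BALB/c, by 1.13-fold for H2-DMa up to 1.82-fold for Ctss. Of all 24685 features tested, 21.6% passed the same test in this comparison, 2847 higher and 2475 lower in B10.D2. The median log2 fold change of the 9 genes was 0.66, beside -0.01 over all features. After SNI, 9 of 9 were higher in B10.D2, with a median of 0.73, where 20.8% of all features passed. These strain differences of the genes were positive in 9 of 9 cases in both states. They are not independent cases, since they come from the same mice and most of the genes moved together within groups. The genes were also chosen with earlier results of these data known. Reads of both strains were aligned to the same reference, mm10. Cd74, Ciita, Cd86 and Ctss lie on other chromosomes than the H2 genes of the shared haplotype. Whether sequence differences between the strains bear on their counts was not tested.

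Among the antigen-binding chains, H2-Aa in BALB/c sham ran from 30.2 CPM to 59.5 CPM with a median of 39.9 CPM. In B10.D2 sham it was 54.8, 57.3, 68.8, 70.7 and 76.3 CPM. All 5 B10.D2 libraries lay above the BALB/c median and 3 above the highest BALB/c library, library 55, from a female. Its log2 fold change was 0.66 ± 0.16 (SE, adjusted p = 0.00572). After SNI it was 32.2, 35.3, 52.0 and 71.7 CPM in BALB/c and 64.6, 80.6, 83.1, 83.9 and 112 CPM in B10.D2, a log2 fold change of 0.82 ± 0.18 (adjusted p = 0.00249). H2-Ab1, the other chain of I-A, differed by 0.51 ± 0.16 in sham (adjusted p = 0.0230) and 0.75 ± 0.18 after SNI (adjusted p = 0.00350), from means of 30.8 ± 8.16 CPM (SD, n = 6) and 42.9 ± 5.76 CPM (n = 5) in sham. H2-Eb1, the I-E beta chain, differed by 0.69 ± 0.16 in sham (adjusted p = 0.00353) and 0.73 ± 0.18 after SNI (adjusted p = 0.00566).

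The invariant chain followed the chains it holds. Cd74 in BALB/c sham ran from 45.03 CPM to 96.5 CPM with a median of 65.9 CPM, and was 86.4, 99.5, 104, 111 and 118 CPM in B10.D2 sham. The groups overlapped through the top BALB/c library alone, since 4 of the 5 B10.D2 libraries were above it. The log2 fold change was 0.64 ± 0.16 (adjusted p = 0.00647), and after SNI, from 55.8, 59.2, 86.9 and 111 CPM to 100, 125, 127, 132 and 185 CPM, it was 0.76 ± 0.18 (adjusted p = 0.00398). Ciita, the transactivator, was at 3.99 ± 1.21 CPM (n = 6) in BALB/c sham and 6.402 ± 1.09 CPM (n = 5) in B10.D2 sham, a difference of 0.75 ± 0.19 (adjusted p = 0.00703), and it differed by 0.66 ± 0.21 after SNI (adjusted p = 0.0298).

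The peptide editors gave estimates of unequal size. H2-DMb1 was higher in B10.D2 by 0.66 ± 0.21 in sham (adjusted p = 0.0283) and 0.72 ± 0.23 after SNI (adjusted p = 0.0292), at means of 1.92 to 3.68 CPM in the 4 groups. H2-DMa, which encodes the other chain of the same dimer, differed by 0.17 ± 0.05 in sham (adjusted p = 0.0209) and 0.27 ± 0.06 after SNI (adjusted p = 0.00164). Its 20 libraries stayed within 14.3 to 18.7 CPM, a 1.31-fold range where H2-DMb1 spanned 4.50-fold and Cd74 4.10-fold. After SNI its 4 BALB/c libraries (14.3, 14.96, 15.1 and 15.3 CPM) were all below the 5 of B10.D2 (17.0, 17.3, 18.3, 18.6 and 18.7 CPM), and it was the 1 gene of the 10 with no overlap in that comparison, where 18.3% of all features tested had none. The annotated model of H2-DMa shares 3094 bases with Brd2 on the opposite strand, which was read at a mean of 144 CPM, and LncRNA7268, assembled by the study, lies in it on the same strand. Whether these bear on its level was not tested. H2-DMb1 has a near-identical neighbour, H2-DMb2, and how reads were split between them is uncertain. H2-Oa had 27 counts over the 6 BALB/c sham libraries, 1 of which had 0 (3 counts there would be 0.0856 CPM), 33 over the 5 B10.D2 sham, 26 over the 4 BALB/c SNI and 52 over the 5 B10.D2 SNI libraries, and a difference was not detectable at this depth.

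Ctss and Cd86 act beside the class II molecule itself. Ctss in sham ran from 7.82 CPM to 18.9 CPM in BALB/c, with a median of 12.1 CPM, and was 22.1, 23.8, 24.2, 25.8 and 25.8 CPM in B10.D2. It was the 1 gene of the 10 whose sham groups did not overlap, where 13.3% of all features tested did not, and its difference was 0.87 ± 0.20 (adjusted p = 0.00246). Cd86 was at 1.62 ± 0.66 CPM (n = 6) in BALB/c sham and 2.38 ± 0.30 CPM (n = 5) in B10.D2 sham, a log2 fold change of 0.58 ± 0.22 that did not pass (adjusted p = 0.0732). After SNI it differed by 0.75 ± 0.25 and passed (adjusted p = 0.0339).

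**Figure D2:**
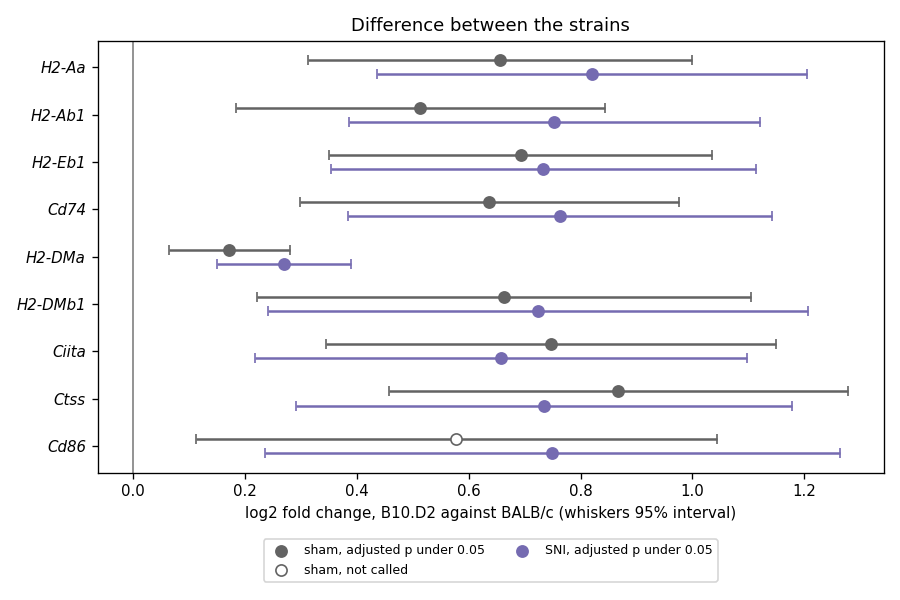
Log2 fold change of B10.D2 against BALB/c (x axis) for the 9 genes tested, in sham (grey) and after SNI (purple), with 95% intervals and filled points for an adjusted p under 0.05. All points lie right of 0, and H2-DMa has the smallest difference and the narrowest interval in both states.

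Some of these calls rested on single libraries. With each of the 20 libraries left out in turn, H2-Aa, H2-Eb1, Cd74, Ciita and Ctss kept their call in sham in 20 of 20 fits, H2-DMa in 17, H2-Ab1 in 16 and H2-DMb1 in 12, while Cd86 gained one in 2 (without BALB/c sham library 50 or 55). After SNI, H2-Aa, H2-Ab1, H2-Eb1, H2-DMa and Cd74 kept theirs in 20 of 20, Ctss in 17, and H2-DMb1, Ciita and Cd86 in 15 each. The sham calls fell to 5 genes without B10.D2 library 67, and 1 or 2 were lost without B10.D2 library 58, 60 or 88 or BALB/c library 51, 56, 57 or 71. The calls after SNI fell to 5 without B10.D2 library 69 or BALB/c library 70 and to 6 without B10.D2 library 90 or BALB/c library 49, and 1 or 2 were lost without library 78, 64 or 65.

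After injury, Ctss was the 1 gene of this group that was called. In BALB/c 1 of the 9 genes passed, against 9.69% of all features, and in B10.D2 1 of 9 passed, against 4.58% of all features, and that gene was Ctss in both strains. The count in BALB/c lies near the share of all features, so it is a result about Ctss and not about the group. The median log2 fold change of the 9 genes was 0.15 in BALB/c and 0.27 in B10.D2, beside 0.00 and 0.01 over all features.

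In BALB/c, Ctss was 21.05, 21.7, 31.2 and 35.7 CPM after SNI, and each of these was above the highest sham library at 18.9 CPM. The log2 fold change was 0.99 ± 0.21 (adjusted p = 0.00326), or 1.99-fold with a 95% interval of 1.47 to 2.68. In B10.D2 it was 33.2, 34.5, 43.2, 49.3 and 69.6 CPM after SNI, all above the 25.8 CPM of the highest sham library, a log2 fold change of 0.86 ± 0.20 (adjusted p = 0.0155), or 1.81-fold (1.35 to 2.43). It was the 1 gene of the 10 whose sham and SNI libraries did not overlap in BALB/c, where this held for 8.61% of all features tested, and in B10.D2, where it held for 5.18%, and it held in both strains for 2.54%. The B10.D2 call was lost without the SNI library 69, from a female (adjusted p = 0.0520), without the SNI library 90 (adjusted p = 0.0734) and without the sham library 77 (adjusted p = 0.0529).

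The class II chains did not pass in either strain. H2-Aa differed between SNI and sham by 0.13 in BALB/c, with a 95% interval of -0.24 to 0.50, and by 0.29 in B10.D2 (-0.07 to 0.65), and Cd74 by 0.16 (-0.20 to 0.52) and 0.29 (-0.07 to 0.65). In BALB/c the 4 SNI libraries split, with 2 below and 2 above the sham median for H2-Aa, H2-Ab1, H2-Eb1, Cd74, H2-DMb1 and Ciita, and the 2 above were from females (libraries 64 and 65). Ciita had the highest estimate among the genes not called in BALB/c, 0.35 (-0.08 to 0.78), and H2-DMa the lowest, -0.05 (-0.17 to 0.06). Increases of up to 1.41-fold for H2-Aa in BALB/c and 1.57-fold in B10.D2 lie within these intervals, so the data do not show that the chains were unaltered.

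**Figure D3:**
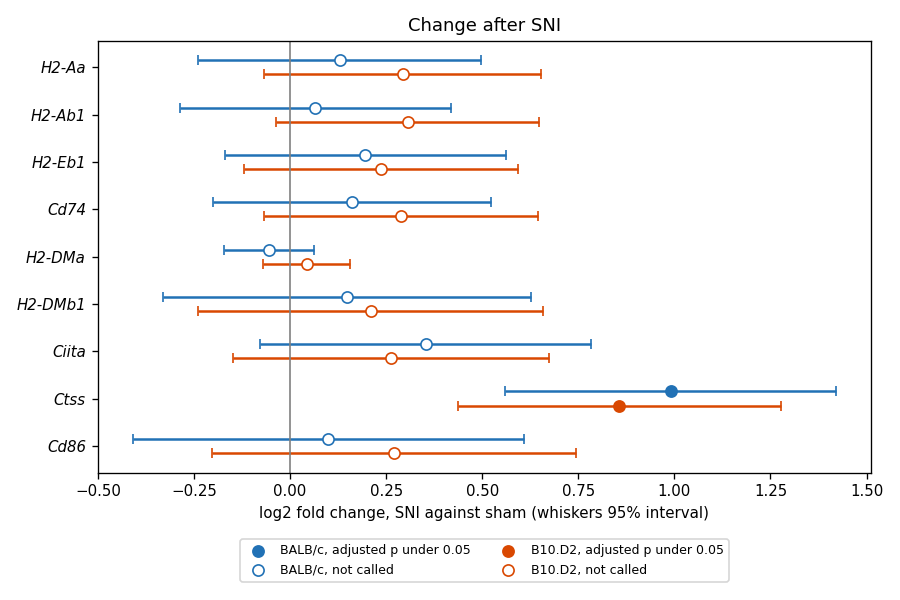
Log2 fold change of SNI against sham (x axis) for the 9 genes tested, in BALB/c (blue) and B10.D2 (orange), with 95% intervals and filled points for an adjusted p under 0.05. Ctss is the 1 filled gene in each strain, and the intervals of the other 8 include 0.

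The response to injury was not shown to differ between the strains. In the test of the interaction 0 of the 9 genes passed by edgeR, 0 had an unadjusted p under 0.05, and DESeq2 called 0 as well; over all features 0.0243% passed. The estimate for Ctss was -0.13 with a 95% interval of -0.73 to 0.47, and for H2-Ab1, the highest, 0.24 (-0.25 to 0.73).

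Female mice had the higher estimate for all 9 genes, but 0 passed by edgeR, where 0.243% of all features did. The median log2 fold change of females against males was 0.33, and 6 of the 9 genes had an unadjusted p under 0.05, as had 2899 of all 24685 features. Ciita differed by 0.50 ± 0.14 (adjusted p = 0.156), H2-DMb1 by 0.52 ± 0.16 (adjusted p = 0.182) and H2-Eb1 by 0.38 ± 0.12 (adjusted p = 0.201). DESeq2 called 1, Ciita (adjusted p = 0.0371). Female means were above male means in 4 of the 4 groups for the 3 chains, Cd74, Ciita, H2-DMb1 and Ctss, in 3 groups for Cd86 and H2-Oa, and in 2 for H2-DMa. The gap was widest after SNI in BALB/c, where Ciita was 5.99 and 7.88 CPM in the 2 females and 3.46 and 3.47 CPM in the 2 males. Within females alone the strain difference was positive for 9 of 9 genes with a median of 0.56 in sham and 0.53 after SNI. There 0 passed in each state, beside 10.4% and 9.39% of all features. Within males alone the difference was positive for 9 of 9 with medians of 0.69 and 1.04, and 5 passed in each state, beside 12.4% and 9.07% of all features. In males alone the change after SNI in BALB/c was below 0 for 6 of the 9 genes, with 0 passing, beside 1.67% of all features. These fits within 1 sex were added after the data had been seen, and they rest on 2 or 3 mice a group.

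Within a group the genes moved together from mouse to mouse. For each gene the deviation of every library from the level fitted for its group and sex was taken on the log2(CPM + 1) scale and set against that of Cd74 over the 20 libraries. Pearson's r was 0.96 for H2-Ab1 and H2-Eb1, 0.92 for H2-Aa and Ctss, 0.91 for H2-DMb1 and 0.86 for Ciita, with Spearman's rho between 0.83 and 0.98. Each of these 6 had an adjusted permutation p of 1.5e-05 (Pearson, over the 9 relations), from the smallest p that the 100000 permutations can give, 1e-05, and of at most 3e-05 for rho. Cd86 was looser, with r = 0.59 (adjusted permutation p = 0.00855) and rho = 0.52 (0.0268). H2-DMa, with r = 0.03 (adjusted permutation p = 0.896) and rho = 0.10 (0.761), and H2-Oa, with r = -0.08 (0.815) and rho = -0.02 (0.941), showed no such relation. Without libraries 50 and 65, the 2 farthest from the median of Cd74, r was 0.95 for H2-Ab1 and H2-Eb1, 0.90 for Ctss, 0.89 for H2-Aa, 0.87 for H2-DMb1, 0.82 for Ciita and 0.60 for Cd86. Within BALB/c alone (10 libraries) r was 0.88 to 0.99 for the same 6 genes and within B10.D2 alone 0.78 to 0.91, with all 6 passing in each by Pearson's r. By Spearman's rho all 6 passed in B10.D2, whereas in BALB/c Ciita did not (rho = 0.66, adjusted permutation p = 0.0681) and the other 5 did.

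**Figure D4:**
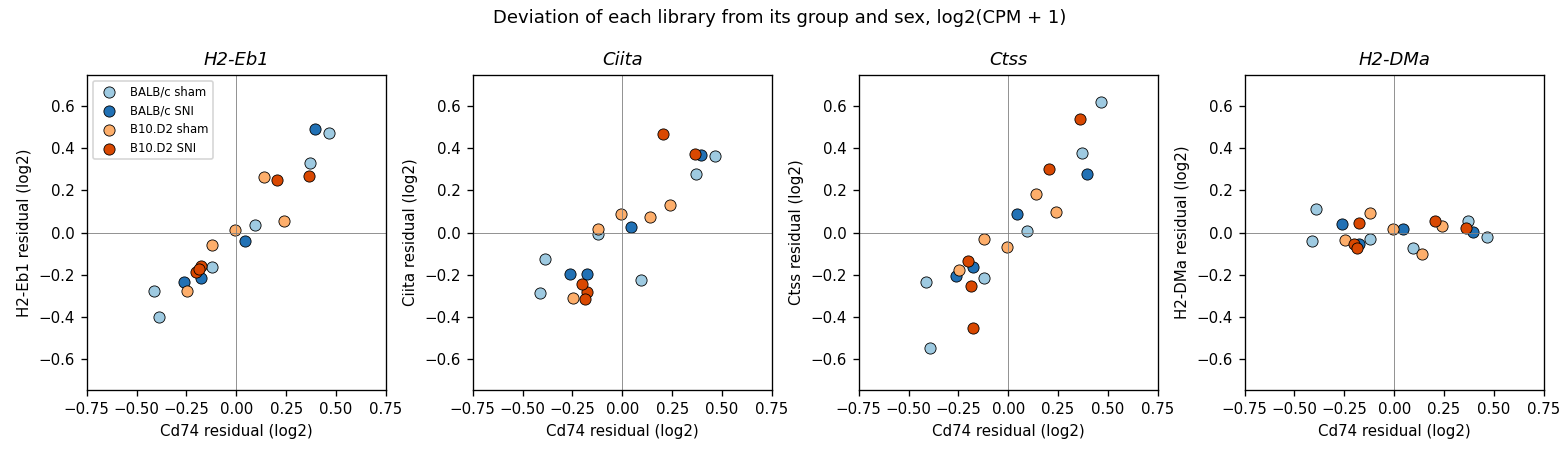
Deviation of each of the 20 libraries from its fitted group and sex level, in log2(CPM + 1), for H2-Eb1, Ciita, Ctss and H2-DMa (y axes) against Cd74 (x axes), coloured by group. Points of the first 3 genes run along a rising line in every group, while those of H2-DMa lie flat within a narrow band around 0.

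The proportions between the chains varied little. Cd74 was read at 1.60 ± 0.13 times the CPM of H2-Aa (SD, 20 libraries; range 1.36 to 1.95), and H2-Eb1 at 0.58 ± 0.04 times. H2-Ea-ps, the I-E alpha gene, is named as a pseudogene because the C57BL/6 reference strain does not express it, while the H2-d haplotype does. It was read in every library, at 16.1 to 38.1 CPM in BALB/c sham and 36.7 to 64.3 CPM in B10.D2 SNI, and at 1.02 ± 0.06 times the CPM of its partner H2-Eb1 (range 0.911 to 1.13). Of 16441 other annotated genes at a mean of 1 CPM or more, H2-Ea-ps had the deviations most like the mean of H2-Aa, H2-Ab1, H2-Eb1 and Cd74 (r = 0.97 over 20 libraries). The next were Gimap3, a GTPase of lymphocytes, with r = 0.91, Foxp1, a transcription factor, with 0.88, Rftn1, a lipid raft protein, with 0.86, and C1qb, a complement chain made by macrophages, with 0.86. These r values are descriptions of the closest genes among many.

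Other genes of the pathway were followed as 5 lists of 33 genes, 30 of which were tested. In sham, 8 of 30 differed between the strains, 6 higher and 2 lower in B10.D2, and after SNI 6 did, 5 higher and 1 lower, with medians over the 30 of 0.13 and 0.02. These counts lie near the shares of all features that passed, 21.6% in sham and 20.8% after SNI. H2-Ea-ps was higher in B10.D2 by 0.63 ± 0.16 in sham (adjusted p = 0.00601) and 0.72 ± 0.18 after SNI (adjusted p = 0.00488), and H2-DMb2 by 0.78 ± 0.20 in sham (adjusted p = 0.00622). Among the endosomal proteases Ctsl, cathepsin L, was higher by 0.57 ± 0.06 in sham (adjusted p = 1.69e-07) and 0.56 ± 0.06 after SNI (adjusted p = 1.31e-06), and Ctsh by 0.62 ± 0.15 and 0.53 ± 0.17, whereas the genes lower in B10.D2, named after their values were seen, were Ctsd, cathepsin D, by 0.15 ± 0.04 and 0.13 ± 0.04, and Ctsz in sham by 0.15 ± 0.05. Of 7 genes of class II transcription, such as Rfx5 and Creb1, only Nfyb, a subunit of NF-Y, passed in sham (0.24 ± 0.05, adjusted p = 0.00129) and 0 passed after SNI by edgeR (1 had an unadjusted p under 0.05, and DESeq2 called 0). After SNI Cd274, which encodes PD-L1, was higher in B10.D2 by 0.68 ± 0.13 (adjusted p = 0.000523).

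After SNI 5 of the 30 pathway genes passed in BALB/c, 4 higher and 1 lower, and 2 in B10.D2, 1 higher and 1 lower, beside 9.69% and 4.58% of all features. H2-Ob, the partner of H2-Oa, rose in BALB/c by 0.75 ± 0.21 (adjusted p = 0.0242), from 0.943 ± 0.27 CPM (n = 6) to 1.60 ± 0.36 CPM (n = 4). March1, a ubiquitin ligase that takes class II and CD86 off the cell surface, rose there by 0.50 ± 0.12 (adjusted p = 0.00834), the related March8 by 0.24 ± 0.04 (adjusted p = 0.00110), and Irf8, a transcription factor of myeloid cells, by 0.60 ± 0.17 (adjusted p = 0.0323). Lgmn, an asparaginyl endopeptidase of the endosome, fell in both strains, by 0.21 ± 0.04 in BALB/c (adjusted p = 0.00460) and by 0.22 ± 0.04 in B10.D2 (adjusted p = 0.00439). Irf1 rose in B10.D2 by 0.40 ± 0.11 (adjusted p = 0.0351). In the interaction and between the sexes 0 of 30 passed by edgeR, and DESeq2 called 0 and 1. An unadjusted p under 0.05 was found for 3 and 13 of the 30, beside 1073 and 2899 of all 24685 features.

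Markers of macrophages, dendritic cells, T cells and B cells were followed beside these genes. Some moved in the same direction and others did not, and their part in these results was not tested. Of 14 macrophage markers, 7 were higher in B10.D2 in sham (Adgre1, Aif1, C1qb, C1qc, Cx3cr1, Fcgr1 and Tyrobp) and 4 were after SNI. Estimates of that strain difference were above 0 for 12 of the 14 in sham and for 10 after SNI. From sham to SNI, 6 rose in BALB/c and 0 in B10.D2 by edgeR. In B10.D2 10 had an unadjusted p under 0.05, as had 4149 of all 24685 features, and DESeq2 called 2. The median log2 fold change of the 14 from sham to SNI was 0.53 in BALB/c and 0.44 in B10.D2. In the test of the interaction 0 of the 14 passed by edgeR, where 0.0243% of all features did. There 0 had an unadjusted p under 0.05, and DESeq2 called 0, so a difference between the strains in this response was not shown. Beside these counts and those of the other marker lists, 21.6% of all features passed between the strains in sham, 20.8% between them after SNI, and after injury 4.58% in B10.D2 against 9.69% in BALB/c. The 14 summed to 164 to 360 CPM in BALB/c sham, 312 to 439 in BALB/c SNI, 283 to 329 in B10.D2 sham and 298 to 508 in B10.D2 SNI, and none was at 0 in a whole group. Of 8 dendritic cell markers 5 were higher in B10.D2 sham, led by Itgax (1.23 ± 0.23), and of 7 T cell markers 5. Of 5 B cell markers 0 differed in sham (0 at an unadjusted p under 0.05, and 0 by DESeq2). After SNI 4 of the 8 dendritic cell markers and 1 of the 7 T cell markers were higher in B10.D2, while 4 of the 5 B cell markers were lower. The summed CPM was 53.6 to 59.4 in BALB/c sham and 63.8 to 69.1 in B10.D2 sham for dendritic cell markers, 2.36 to 3.89 and 4.41 to 6.18 for T cell markers, and 5.44 to 11.5 and 5.35 to 11.02 for B cell markers. Most of the dendritic cell sum came from Flt3 (means of 25.9 and 30.7 CPM in BALB/c and B10.D2 sham) and Zbtb46 (26.7 and 27.0 CPM). After SNI 2 of the 8 dendritic cell markers passed against sham in each strain, 1 higher and 1 lower. Of the B cell and T cell markers 0 passed against sham by edgeR in either strain. In BALB/c estimates were above 0 for 5 of 5 B cell and 7 of 7 T cell markers. An unadjusted p under 0.05 was found for 2 and 4 of them, as for 5739 of all 24685 features, and DESeq2 called 1, Cd79b. In B10.D2 estimates were above 0 for 0 of 5 and 6 of 7, with 0 at an unadjusted p under 0.05.

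Set against the macrophage markers of the same library, the class II sum and Ctss gave different ratios. H2-Aa, H2-Ab1, H2-Eb1 and Cd74 together were 0.667 ± 0.05 times the macrophage sum in BALB/c sham (n = 6; range 0.606 to 0.737) and 0.508 ± 0.11 times in BALB/c SNI (n = 4; 0.388 to 0.619). In B10.D2 they were 0.826 ± 0.11 times in sham (n = 5; 0.644 to 0.947) and 0.797 ± 0.05 times after SNI (n = 5; 0.714 to 0.857). After SNI the ratios of the strains did not overlap, and in sham they did. Lyz2, the most read of the 14 markers, had the lower mean in B10.D2 SNI, at 121 ± 27.9 CPM (n = 5) against 136 ± 24.7 CPM (n = 4) in BALB/c SNI, while 10 of the 14 had strain estimates above 0 there. Ctss was 5.37 ± 0.33% of the macrophage sum in BALB/c sham and 8.01 ± 0.75% in B10.D2 sham, with no overlap, and 7.48 ± 1.25% and 11.3 ± 1.89% after SNI. Relative to the sum of the 4 class II genes Ctss was 8.09 ± 0.86% and 9.75 ± 0.53% in sham and 14.9 ± 1.21% and 14.1 ± 1.76% after SNI, and each SNI library was above each sham library of either strain. These ratios were chosen after the data had been seen and are given with no test.

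**Figure D5:**
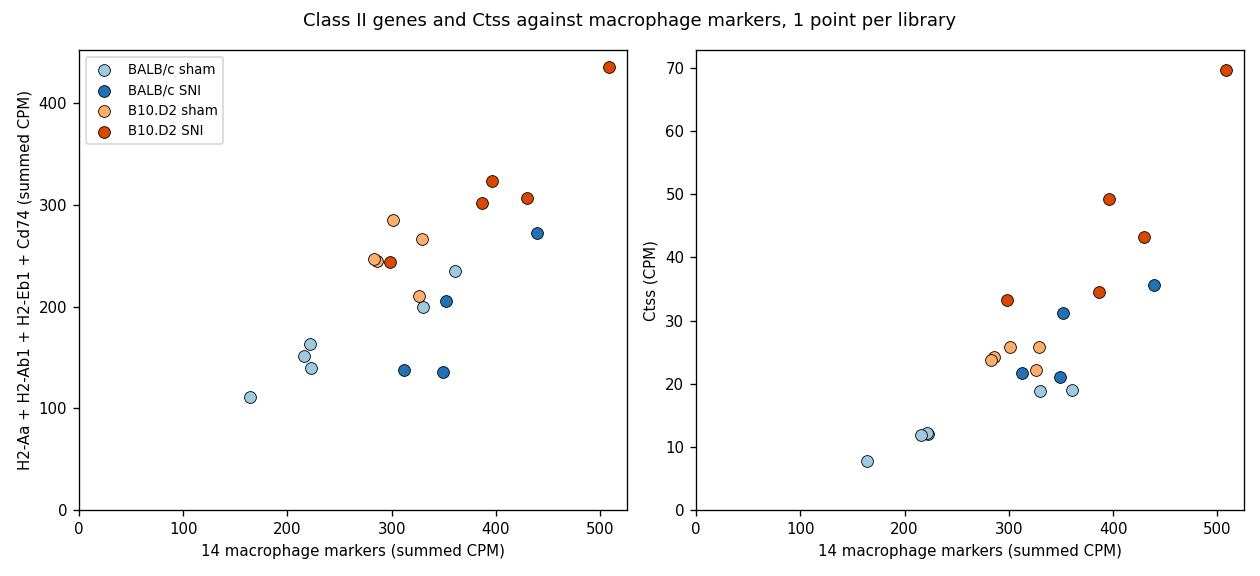
Summed CPM of H2-Aa, H2-Ab1, H2-Eb1 and Cd74 (left) and CPM of Ctss (right) against the summed CPM of 14 macrophage markers, 1 point per library, coloured by group. BALB/c SNI libraries lie to the right of most BALB/c sham libraries at similar class II levels, and library 69 of B10.D2 SNI is the highest on all 3 axes.

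The study assembled 5 LncRNAs overlapping or within 50 kb of these genes, of which 4 were tested. LncRNA7091 (chr16:10481451-10500658, plus strand) lies in Ciita on its own strand and was higher in B10.D2 by 0.66 in sham (adjusted p = 0.0108) and 0.62 after SNI (adjusted p = 0.0303), from 2.41 ± 0.63 CPM (n = 6) to 3.77 ± 0.88 CPM (n = 5) in sham. A transcript on the strand of its host gene cannot be told from reads of that gene. LncRNA3019 (chr16:10522746-10529193, minus strand), antisense to Ciita, was at 2.22 to 3.63 CPM and did not pass in either strain comparison (-0.16 and -0.18, adjusted p = 0.360 and 0.328). LncRNA3018, 9279 bases from Ciita, and LncRNA7268, in H2-DMa, did not pass in any of the 4 comparisons of strain or injury. LncRNA7373 (chr17:34297079-34328958, minus strand), antisense to H2-Eb1 and 9255 bases from H2-Aa, had 1 to 10 counts a library and was not tested.

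In the rat experiment of the study (L5 DRG of male Wistar rats 21 days after spinal nerve transection or sham surgery, 4 libraries a group, each from 3 pooled animals, 11954612 to 17887909 counts a library) these genes could not be followed. All 12 rat class II features listed (the RT1-B, RT1-D, RT1-H, RT1-DM and RT1-DO genes), Cd74, Ciita and Cd86 were listed at 0 in all 8 libraries, and no row carried the symbol Ctss. A gene listed at 0 there cannot be read as one not expressed. Of the pathway genes that were counted 17 were tested and 7 rose, with 0 falling, where 27.4% of all 13690 features passed, among them Icam1 (0.95 ± 0.18, adjusted p = 0.0115), Jak2 (0.74 ± 0.19, adjusted p = 0.0197), Ifngr1 (0.63 ± 0.13, adjusted p = 0.0125), Ctsh (0.50 ± 0.13, adjusted p = 0.0231) and Nfya (0.43 ± 0.14, adjusted p = 0.0443). The count of 7 rested on single libraries. With the libraries of transected rats called SNT and both groups taken in accession order, it was 10 without the fourth sham library, 8 without the first SNT library, 2 without the third sham library, and 3 without any 1 of the others.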

How the data were processed

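RNA was sequenced by the study from the DRG of single mice (ribosomal RNA depleted) and of pooled rats (polyadenylated RNA). The deposited values are raw counts per gene: the authors aligned reads with STAR to mm10 or rn6 and counted them with HTSeq on Ensembl genes plus their assembled LncRNAs. Their columns of fold changes and p-values were not used, except for the gene symbols beside them. Symbols missing there were filled from GENCODE M21, which held 99.5% of the Ensembl identifiers.

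Counts were normalised by TMM and tested with edgeR 4.0.16 (quasi-likelihood F test, filterByExpr, sex plus strain by surgery over all 20 mouse libraries, and surgery alone in the rat). P-values are two-sided and Benjamini-Hochberg adjusted over all features tested, called at 0.05. CPM are counts per 1000000 of the TMM-scaled library total, and SE is the log2 fold change over the root of F. DESeq2 1.42.0 was an alternative. In simulated counts for BALB/c SNI against sham (24272 features), 81.8% of 2-fold and 99.0% of 4-fold changes were recovered, and 6 unchanged features were called. Smaller changes, such as the estimates of the class II chains after SNI, were not simulated. Permutation tests and figures used Python (scipy 1.17.1, matplotlib 3.10.9).

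The 10 genes and all lists were chosen with earlier results of these data known. Named genes are the 10 in every comparison, the up to 5 largest called pathway changes per comparison, the 5 genes most like the chains and Cd74, and LncRNAs within 50 kb. Mice are replicates of a group. The rat libraries were not paired by the first number in their titles, which the labels do not explain. Alternatives tried were DESeq2 size factors, the DESeq2 Wald test, no filter, a mean of at least 10 counts, annotated genes alone and leaving out each library. Others were no sex term, each strain alone, the first number in the title as a replicate block in the rat and, added after the data were seen, each sex alone.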

Additional observations from a re-analysis of the deposited data

Results flagged for a closer look

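Of the 40 sets of values (10 genes in 4 groups) checked for a library standing apart, 2 had a gap above Dixon's 95% critical value, and chance alone flags about 1 in 20. Both were B10.D2 sham library 67, from a female: H2-DMb1 was at 3.56 CPM there against 2.66 to 2.78 CPM in the other 4 libraries, and Ciita was at 8.31 CPM against 5.61 to 6.15 CPM. The gap was 0.872 of the range for H2-DMb1 and 0.801 for Ciita, where 0.710 is the limit for 5 libraries. Without that library the difference between the strains in sham was not called for H2-DMb1, H2-Ab1 and H2-DMa (adjusted p of 0.0530 to 0.0583), and Ciita was still called.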

How the results depend on the processing

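Direction was steadier than the call. The strain differences of the 9 genes tested were positive under every alternative run in both states. Of the counts of calls under alternatives, 307 stayed within 1.5 times the reported count and 44 did not. With 1 library left out at a time, the genes called ranged from 5 to 9 for the strains in sham, 5 to 9 after SNI, and 0 to 1 for B10.D2 SNI. The pathway genes called ranged from 3 to 6 for BALB/c SNI, 1 to 3 for B10.D2 SNI, 6 to 9 for the strains in sham, 4 to 7 after SNI and 0 to 1 between the sexes. With each strain fitted alone 3 pathway genes were called for BALB/c SNI and 1 for B10.D2 SNI. In female mice alone 0 of the 9 genes were called for the strains in sham, 0 for the strains after SNI and 0 for B10.D2 SNI, with 0, 0, 1 and 1 pathway genes for BALB/c SNI, B10.D2 SNI, the strains in sham and the strains after SNI. In male mice alone these were 0 genes for BALB/c SNI and for B10.D2 SNI and 5 for the strains in each state, with 0, 0 and 4 pathway genes for BALB/c SNI, B10.D2 SNI and the strains in sham. Those fits hold fewer samples. Between the sexes, 2 genes (Ciita and H2-Eb1) and 2 pathway genes were called without a filter, and 1 gene and 1 pathway gene by DESeq2. The cause was not tested.

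Signs turned for values that were not called. In male mice alone the BALB/c SNI estimates were -0.26 for H2-Aa, -0.18 for H2-Ab1, -0.13 for H2-Eb1, -0.31 for H2-DMb1 and -0.15 for Cd74. For the interaction, female mice alone gave -0.057 for H2-Aa, -0.11 for H2-Eb1, -0.035 for H2-DMb1 and -0.0032 for Cd74, and male mice alone 0.22 for Ciita and 0.049 for Ctss. In BALB/c alone r with Cd74 was -0.11 for H2-DMa and 0.015 for H2-Oa. With 1 library left out, BALB/c SNI ranged from -0.081 to 0.24 for H2-Aa, -0.085 to 0.17 for H2-Ab1, -0.028 to 0.30 for H2-Eb1, -0.10 to 0.29 for H2-DMb1, -0.0055 to 0.26 for Cd74 and -0.015 to 0.32 for Cd86. The interaction ranged from -0.084 to 0.28 for H2-Eb1, -0.11 to 0.33 for H2-DMb1, -0.28 to 0.11 for Ciita and -0.026 to 0.29 for Cd86, and females against males from -0.013 to 0.018 for H2-DMa.

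The mouse libraries carry unique numbers, so no replicate block could be fitted there. In the rat the 10 genes gave no value, and of the other pathway genes 2 to 10 were called with 1 library left out. Each rat title holds a first number that 1 sham and 1 SNT library share, and the labels do not say what it stands for. With that number as a replicate block, 3 rat pathway genes (Icam1, Ifngr1 and Jak2) were called in place of 7, and 17.4% of all features in place of 27.4%. The deviations of sham and SNT libraries with the same number had r of -0.238 to 0.0529 in 4 pairs. Of the 8 libraries, 0 were closest to the library with their own number. These 4 pairs are too few to tell whether the number stands for a batch. Depth limited H2-Oa: with no filter its differences were 0.54 for BALB/c SNI and 0.60 for the strains in sham, with adjusted p of 0.685 and 0.521.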
